A study of Mus musculus with 24 samples.

Results

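The genes for the ionotropic and metabotropic receptors of glutamate, GABA and glycine were examined in maps of SOX8, SOX9 and 2 histone marks from mouse retina. They were chosen by gene symbol and no measured value entered the rule, although earlier results of these data were known. Of 21887 protein-coding genes, 47 met the rule. They comprise 4 AMPA, 5 kainate, 7 NMDA and 7 metabotropic glutamate receptor genes, 19 GABA-A subunit genes and 5 glycine receptor genes. CUT&RUN, in which an antibody guides a nuclease to a chromatin protein and the freed DNA is sequenced, was run on retina of wild-type mice 2 days (P2) and 17 days (P17) after birth, with 600000 nuclei per reaction. At each age the study has 4 SOX8 libraries (2 for each of 2 antibodies) and 2 for nonspecific IgG, SOX9 and each of the histone marks H3K4me3 and H3K27ac, 24 in all. The processed data are 8 peak lists, 1 for each target and age. No genotype or treatment other than wild type enters, and strain, sex and the number of animals per library are not given in the sources used here.

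Glutamate carries the signal from photoreceptors to bipolar cells and from bipolar cells to amacrine and ganglion cells, while GABA and glycine are the transmitters of horizontal and amacrine cells. AMPA, kainate and NMDA receptors are cation channels opened by glutamate, metabotropic receptors act through G proteins, and GABA-A and glycine receptors are chloride channels. SOX8 and SOX9 are related transcription factors of the SOXE group, found in retinal progenitors and Müller glia. H3K4me3 marks promoters of active or poised genes, and H3K27ac marks active promoters and enhancers. P2 falls in the time when rods, bipolar cells and Müller glia are still being born, and P17 follows eye opening.

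Each list gives a position for every peak and no height, so a gene is described by whether a peak overlapped it or the 5 kb on either side. No list holds values by replicate, so no error and no test could be computed, and differences between lists below are descriptions. The libraries came from whole retina, so fewer cells carrying a mark and less of the mark per cell cannot be told apart. Depth is unknown, and the lists differ in size, from 2400 peaks for P17 SOX8 to 287845 for P2 H3K27ac. H3K4me3 lay at 10 of 12 general retina and photoreceptor marker genes at P2, where Rcvrn was among those without, and at 11 of 12 at P17, where Rlbp1 had none. It lay at 1 of 4 markers each of pigment epithelium, microglia and endothelium at both ages, and at 0 of 3 erythroid markers. Of neuronal markers, 3 of 5 for amacrine and horizontal cells had it at each age, 1 of 4 for bipolar cells at P2 and 2 of 4 at P17, and 1 of 5 for ganglion cells at P2 and 0 of 5 at P17. The part of such cell types in the results on receptor genes was not tested.

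The SOX lists held few receptor genes. The P2 SOX8 list had a peak at 2 of 47 (4.26%), beside 15.1% of all protein-coding genes, and the P2 SOX9 list at 5 of 47 (10.6%), beside 27.7%. At P17 the SOX8 list had a peak at 4 (8.51%), beside 13.0%, and the SOX9 list at 7 (14.9%), beside 15.7%. At P2 both shares were below those of all genes, and the P17 SOX9 share was near its background. At least 1 SOX list of P2 had a peak at 5 receptor genes (background 28.4%) and at least 1 of P17 at 8 (background 19.5%). At least 1 of the 4 SOX lists had a peak at 9 (19.1%), beside 33.9% of all genes. These 9 were Grik3, Grik4, Grik5, Grin1, Grin2a, Grin2d, Grin3b, Grm2 and Grm4, all glutamate receptor genes. None of the 4 AMPA, 19 GABA-A or 5 glycine receptor genes had a SOX peak in any list. By age, SOX8 had a peak at no receptor gene in both lists (background 8.08%), at 2 in the P2 list alone (7.0%), at 4 in the P17 list alone (4.94%) and in neither at 41 (80.0%). SOX9 had one at 4 genes in both lists (11.4%), at 1 in the P2 list alone (16.4%), at 3 in the P17 list alone (4.35%) and in neither at 39 (67.9%). The SOX8 lists of the ages thus had no receptor gene in common, and the SOX9 lists shared Grik3, Grik5, Grin2d and Grm4.

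As deposited, H3K4me3 and H3K27ac differed between the ages in opposite ways. H3K4me3 lay at 13 receptor genes at P2 (27.7%), beside 49.3% of all genes, and at 21 at P17 (44.7%), beside 50.9%. H3K27ac lay at 45 at P2 (95.7%), beside 81.8%, and at 27 at P17 (57.4%), beside 57.0%. Receptor genes are long, with a median of 137 kb (range 6.79 to 922 kb) against 17.2 kb for all genes, and a long window has more room for a peak. Among protein-coding genes of 100 kb or longer, 61.0% had H3K4me3 at P2 and 65.2% at P17, and 99.3% and 75.1% had H3K27ac. SOX8 lay at 19.0% and 13.7% of them at P2 and P17, and SOX9 at 36.8% and 17.1%. Of the 25 receptor genes of that length, 11 (44.0%) had H3K4me3 at P2 and 14 (56.0%) at P17, and 25 (100%) and 15 (60.0%) had H3K27ac. SOX8 lay at 2 of these 25 (8.0%) at P2 and at 0 at P17, and SOX9 at 2 (8.0%) at each age. At this length the receptor genes lay below other genes in each list except P2 H3K27ac. Neither a SOX nor an H3K4me3 peak at either age was found at 22 of 47 (46.8%), near the 43.1% of all genes. Among all protein-coding genes of 100 kb or longer the share was lower, at 26.6%.

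**Figure D1:**
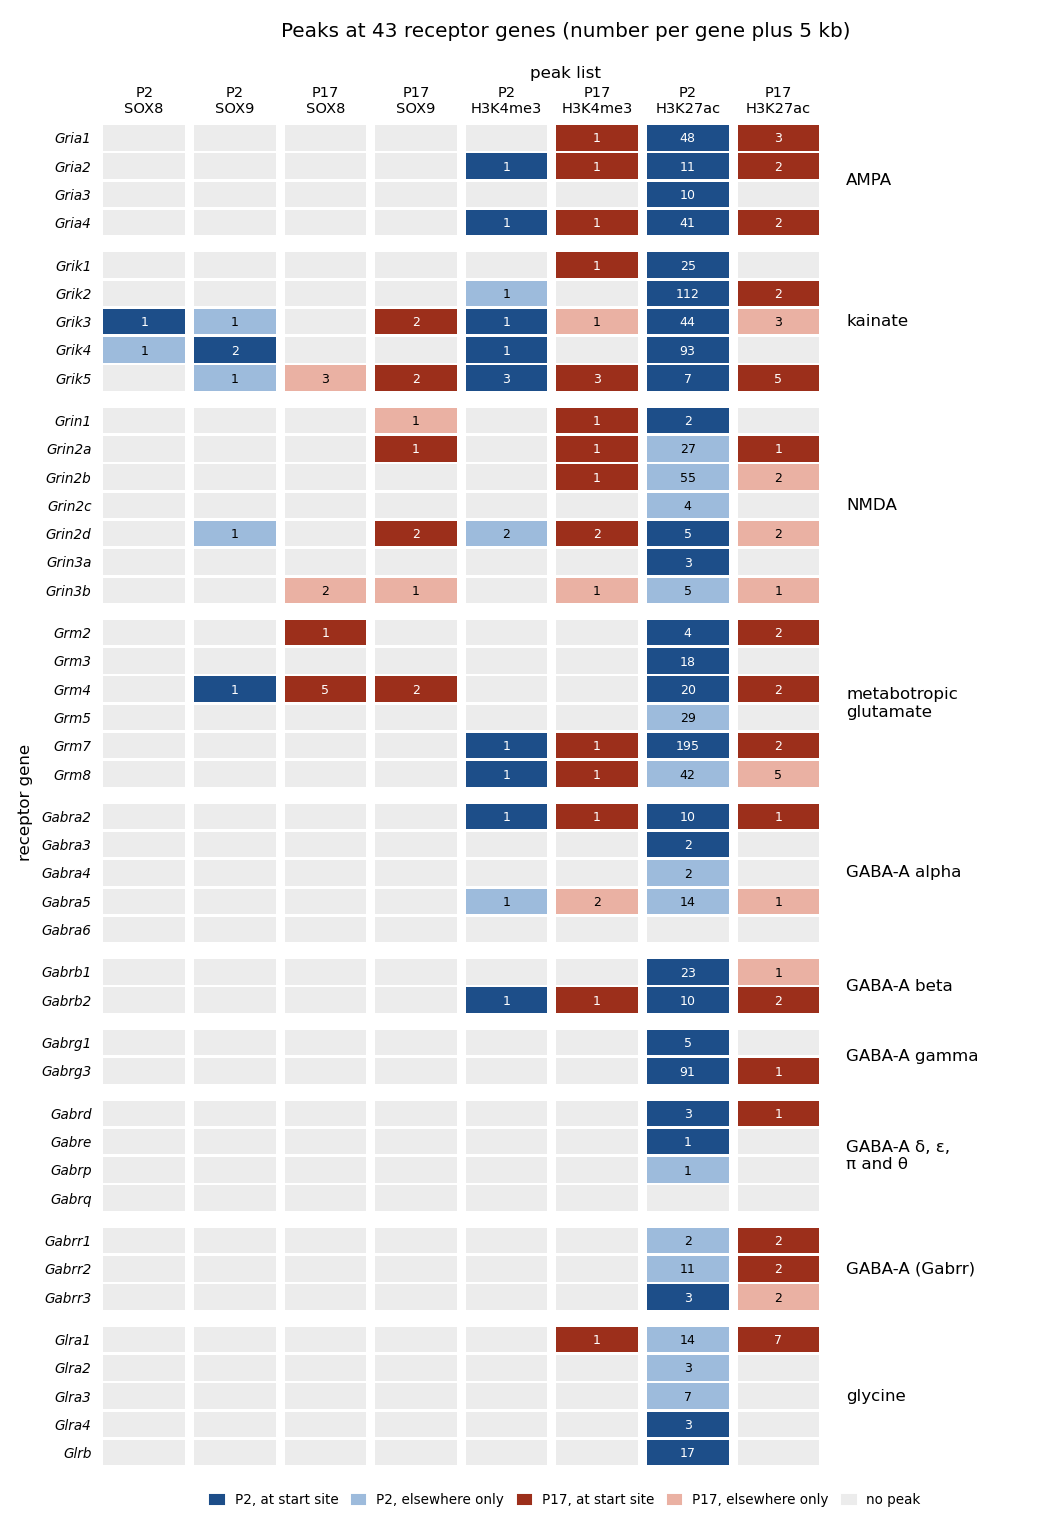
Number of peaks at each of 43 receptor genes (rows, grouped by receptor type) in each of the 8 peak lists (columns); blue is P2 and red P17, dark shades mark genes with a peak within 1 kb of the start site and light shades genes with peaks elsewhere only. SOX peaks occupy 9 glutamate receptor genes and no GABA-A or glycine receptor gene, and H3K4me3 fills 12 cells at P2 and 17 at P17.

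**Figure D2:**
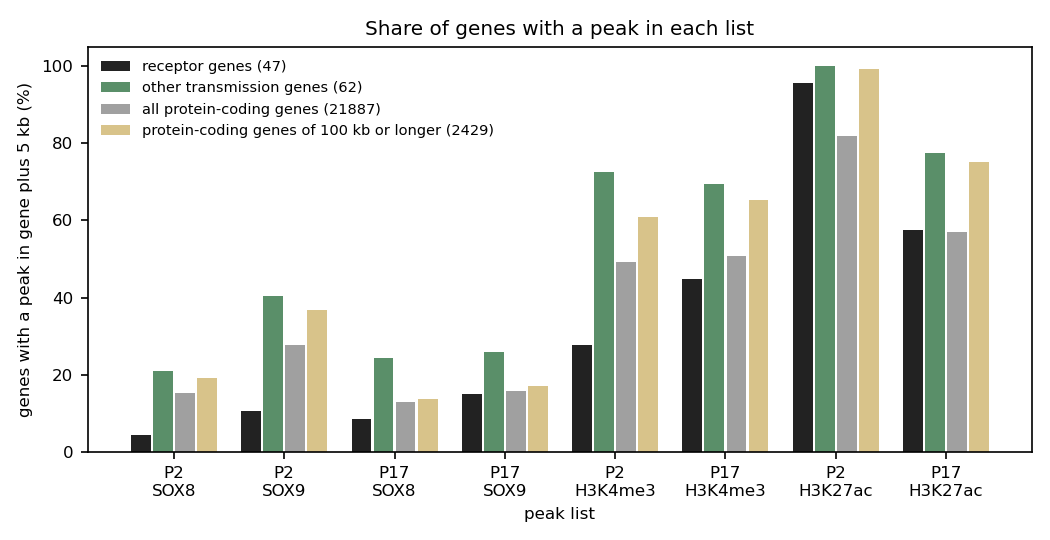
Share of genes with a peak in the gene plus 5 kb (vertical axis, percent) in each of the 8 lists, for the 47 receptor genes, 62 other genes of the same transmitter systems, all 21887 protein-coding genes and the 2429 of 100 kb or longer. Receptor genes stand at 4.26% for P2 SOX8 and 10.6% for P2 SOX9, below the other sets, and at 95.7% for P2 H3K27ac.

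At the kainate receptor genes Grik3 and Grik4, which have no other gene in their windows, SOX peaks lay over the start and inside the gene. At Grik3, a kainate receptor subunit, the P2 SOX8 peak chr4:125489569-125492322 covered the start site and lay on a P2 H3K4me3 peak of 4445 bp. A P17 SOX9 peak, chr4:125489277-125495030, covered the same start, where no H3K4me3 or H3K27ac peak was listed at P17. The P2 SOX9 list had no peak there, and its peak, chr4:125702176-125704988, lay 211480 bp into the gene. A further P17 SOX9 peak lay 145302 bp from the start. The P17 H3K4me3 list had 1 peak at Grik3, of 3827 bp and 164924 bp from the start, inside a P17 H3K27ac peak of 10705 bp. The start of Grik3 thus had SOX peaks at both ages, from different factors, and its H3K4me3 peak stood at the start at P2 and inside the gene at P17.

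Grik4, a high-affinity kainate subunit that needs a partner to form a channel, had peaks at P2 and none in any P17 list. A P2 SOX8 peak (chr9:42896573-42898085) lay within a P2 SOX9 peak (chr9:42896365-42899114), with its near edge 46286 bp from the start. A P2 SOX9 peak of 3169 bp covered the start together with an H3K4me3 peak of 2701 bp. The P2 H3K27ac list had 93 peaks over 49.9% of the Grik4 window, and the P17 list had none. Grik5, the other high-affinity subunit, has 2 neighbours in its window, 1 of them Zfp574. Of its SOX peaks, the P2 SOX9 peak and a P17 SOX8 peak overlapped Zfp574, beyond the Grik5 gene. A P17 SOX9 peak of 7751 bp, chr7:25070107-25077857, covered the start of Grik5 and came within 1 kb of that of Zfp574. A P17 SOX8 peak of 1809 bp at the 3' end of Grik5 lay within 1 kb of no start. It lay inside a P17 SOX9 peak of 10866 bp that came within 1 kb of the start of the other neighbour. Grik1 and Grik2 had no SOX peak.

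The 250 bases before the start of these genes, and of Grm2 described next, are shown because a SOX peak lay over them, from RefSeq promoter entries of GRCm38.p6, 5' to 3' on the strand of the gene. Capitals mark each CG step, the site of DNA methylation in vertebrates. Grik3 is at chr4:125490446-125490695 (plus strand), Grik4 at chr9:42944372-42944621 (minus), Grik5 at chr7:25072370-25072619 (minus) and Grm2 at chr9:106656110-106656359 (minus).
Grik3: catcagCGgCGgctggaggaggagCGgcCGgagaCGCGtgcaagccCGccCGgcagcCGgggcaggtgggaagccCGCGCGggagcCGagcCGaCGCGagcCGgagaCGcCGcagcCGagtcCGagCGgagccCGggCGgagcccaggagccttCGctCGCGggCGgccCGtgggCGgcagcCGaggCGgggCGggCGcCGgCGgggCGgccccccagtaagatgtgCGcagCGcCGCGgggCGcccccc
Grik4: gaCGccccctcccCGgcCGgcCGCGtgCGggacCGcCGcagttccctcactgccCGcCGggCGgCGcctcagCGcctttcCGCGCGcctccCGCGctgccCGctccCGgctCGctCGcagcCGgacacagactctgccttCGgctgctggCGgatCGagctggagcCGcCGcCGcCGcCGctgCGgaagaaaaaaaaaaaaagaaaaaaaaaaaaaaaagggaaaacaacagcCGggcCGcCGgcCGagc
Grik5: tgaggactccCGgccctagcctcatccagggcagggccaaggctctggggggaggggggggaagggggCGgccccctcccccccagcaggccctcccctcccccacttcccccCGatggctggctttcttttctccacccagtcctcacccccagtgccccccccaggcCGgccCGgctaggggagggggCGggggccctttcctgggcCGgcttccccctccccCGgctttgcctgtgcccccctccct
Grm2: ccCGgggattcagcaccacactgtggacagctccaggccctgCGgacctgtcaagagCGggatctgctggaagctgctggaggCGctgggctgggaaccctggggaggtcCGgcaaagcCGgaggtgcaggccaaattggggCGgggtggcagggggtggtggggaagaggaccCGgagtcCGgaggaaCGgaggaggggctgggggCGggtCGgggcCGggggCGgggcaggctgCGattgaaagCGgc
Grik3 has 42 CG steps at 82.0% G+C and Grik4 has 36 at 69.6%, both with H3K4me3 over the start at P2 and not at P17. Grik5 has 8 at 75.2%, with H3K4me3 at both ages, and Grm2 has 16 at 71.2%, with H3K4me3 at neither. All 4 are rich in G and C, but they differ in CG steps. The median over the 40 promoters available for 33 receptor genes was 8 CG steps and 58.8% G+C, against 10 and 55.6% over 21263 promoters of all protein-coding genes.

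Of the metabotropic receptor genes, which signal through G proteins and often act on the presynaptic side, Grm2 and Grm4 had SOX peaks. Grm4 had peaks of both factors at P17 and no H3K4me3 peak at either age, and no other gene lies in its window. The P2 SOX9 list had 1 peak at Grm4, chr17:27511211-27514719, over the end of the gene with the higher coordinate. At P17 the SOX8 list had a peak at the same end, chr17:27511120-27514823, and the SOX9 list had chr17:27511246-27516764. A P17 SOX9 peak, chr17:27430432-27436333, near the other end overlapped the P17 SOX8 peaks chr17:27426208-27430794 and chr17:27432844-27436269. The remaining P17 SOX8 peaks were chr17:27455841-27459865 and chr17:27500300-27501868. Grm4 thus had 5 P17 SOX8 peaks, and 8 of 21887 protein-coding genes (0.0366%) had 5 or more. Of these 5 peaks, 2 overlapped a P17 H3K27ac peak and 3 overlapped neither mark at P17. The RefSeq promoter table used here has no entry for Grm4, so both of its ends stood in for the start site.

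Grm2, an inhibitory autoreceptor gene, had a P17 SOX8 peak over its start, chr9:106654674-106658425. A P17 H3K27ac peak of 2453 bp lay there too, with no H3K4me3 peak at either age. No SOX9 list and no P2 SOX list had a peak at Grm2. The presence of a SOX peak without H3K4me3 at Grm2 and Grm4 differs from most SOX peaks of these lists. Of all peaks in the P17 SOX8 list, 69.7% overlapped P17 H3K4me3, and 4 of the 11 at receptor genes did. For P17 SOX9 the share was 66.5% of all peaks and 6 of 11 at receptor genes, and for P2 SOX9 it was 79.8% and 3 of 6.

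**Figure D3:**
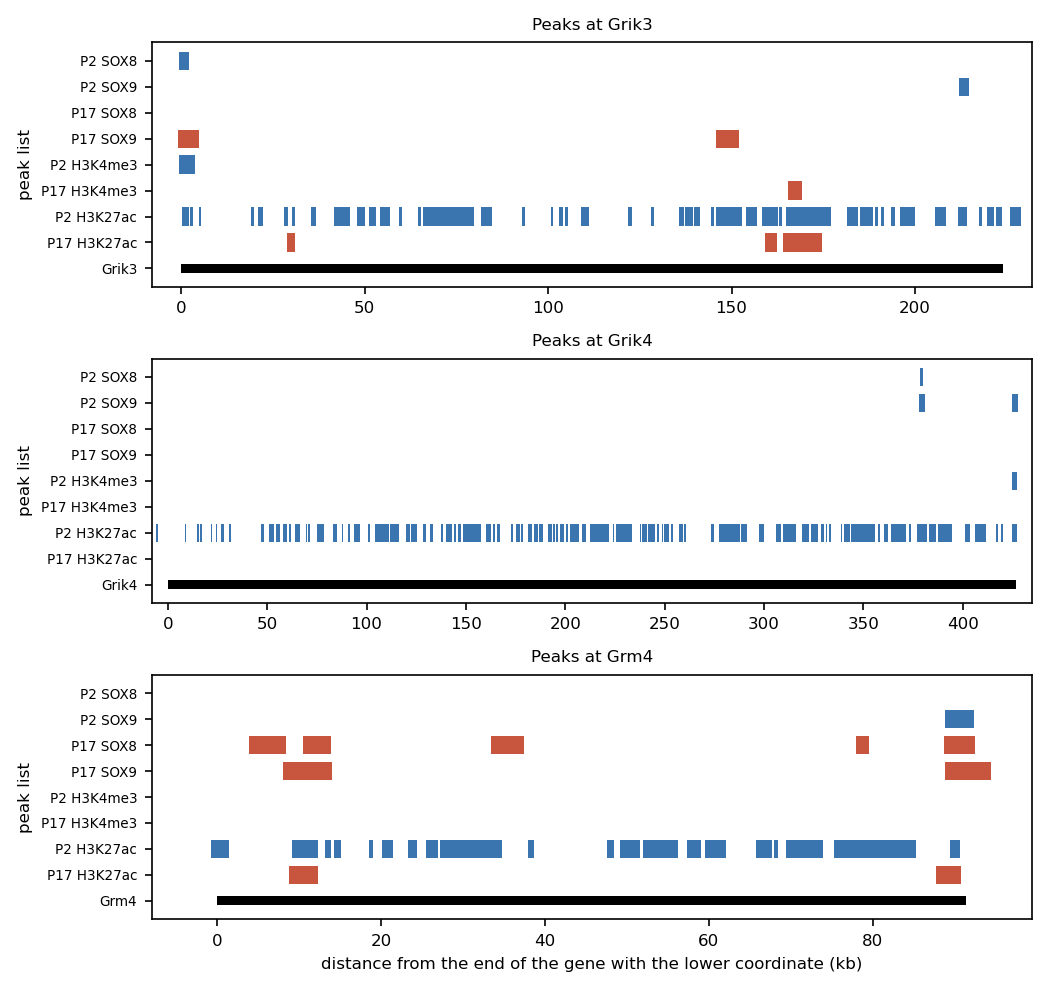
Peaks of the 8 lists at Grik3, Grik4 and Grm4 (1 line per list, blue P2 and red P17), plotted by distance in kb from the end of the gene with the lower coordinate, with the gene as a black bar. Grik4 has no P17 peak in any list, and Grm4 has 5 P17 SOX8 and 2 P17 SOX9 peaks with no H3K4me3.

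At NMDA receptor genes the SOX peaks were mostly shared with neighbours. The P17 SOX9 peak in the window of Grin1, the obligatory NMDA subunit, lay over Tmem210 and Lrrc26 at the far end, 24669 bp from the start. At Grin3b, which codes for an unusual subunit that binds glycine, 2 P17 SOX8 peaks and a P17 SOX9 peak lay within 1 kb of a start of Tmem259. At Grin2d, peaks of the SOX9 lists lay at the starts of Kdelr1 and Grwd1, and the edge of a P17 peak at Kdelr1 came within 998 bp of the Grin2d start. At Grin2a, a P17 SOX9 peak (chr16:9992028-9996522) covered the end of the gene together with a P17 H3K4me3 peak (chr16:9992011-9996422), with no other gene in the window. Grin2a, whose subunit takes a growing share of NMDA receptors as synapses mature, had no SOX or H3K4me3 peak at P2. Among the 4, it was the gene whose SOX peak lay at an end of the gene itself and at no neighbour. Grin2b, Grin2c and Grin3a had no SOX peak.

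SOX peaks at receptor genes had a median width of 6370 bp for P17 SOX9, against 5309 bp for all peaks of that list at protein-coding genes. The medians were 3704 bp against 2903 bp for P17 SOX8, 2933 bp against 2650 bp for P2 SOX9 and 2134 bp against 2211 bp for the 2 peaks of P2 SOX8. Within 1 kb of a receptor gene's own start lay a peak at 1 gene for P2 SOX8 (background 12.1%), 2 for P2 SOX9 (22.6%), 2 for P17 SOX8 (8.9%) and 5 for P17 SOX9 (10.8%). The 5 of P17 SOX9, or 10.6%, were close to their background, and the P2 counts were below theirs. Counting the 34 receptor genes alone in their window left 3 genes for P2 SOX9, 1 for P17 SOX8 and 3 for P17 SOX9, since Grik5, Grin1, Grin2d, Grin3b and Grm2 have neighbours within 5 kb.

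H3K4me3 at receptor genes was found more often in the P17 list than in the P2 list. It lay at 11 genes in both lists (23.4%, background 45.9%), at 10 in the P17 list alone (21.3%, background 5.0%) and at 2 in the P2 list alone (4.26%, background 3.4%), and 24 had it in neither list (51.1%, background 45.7%). The 10 with a P17 peak alone included Gria1, Grik1, Grin1, Grin2a, Grin2b, Grin3b and Glra1, and the 2 with a P2 peak alone were Grik2 and Grik4. Within 1 kb of the start, H3K4me3 lay at 10 genes at P2 (21.3%, background 44.3%) and 18 at P17 (38.3%, background 45.6%). There the P17 list alone held 10 genes (21.3%, background 4.78%), with Grin2d in place of Grin3b. Of these 10, Grin1 and Grin2d have a RefSeq start site, and for the rest either end of the gene stood in. The P2 list alone held Grik3 and Grik4 (background 3.48%), both lists held 8 (40.8%) and neither held 27 (51.0%). By these counts the share of receptor genes with a P17 peak alone was above that of all genes. The P2 and P17 lists, with 9134 and 9629 peaks, were close in size. Over the RefSeq promoters the share was near its background. There the P17 list alone held 2 of 40 receptor promoters (5.0%), those of Grin1 and Grin2d, against 4.81% of all promoters. Each list had H3K4me3 over 13 of these 40. The excess in the P17 list thus lay mostly at genes with no RefSeq promoter entry.

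NMDA genes made up 4 of the 10 at the start. Grin1 had a P17 peak of 3230 bp from 678 bp before to 2551 bp after the start, Grin2a one of 4412 bp and Grin2b one of 6693 bp. The P17 peak over the Grin2d start was 10442 bp wide and ran on to the start of Kdelr1, where the P2 list also had a peak, so at Grin2d the lists differ in how far a peak reached. The P17 peak near Grin3b lay at the starts of Tmem259 and Cnn2 and not at Grin3b. Grin2c and Grin3a had no H3K4me3 peak in either list. The promoter of Grin1, the subunit that every NMDA receptor needs, is shown as the one among these start sites with a RefSeq entry and no neighbour at the start.
Grin1: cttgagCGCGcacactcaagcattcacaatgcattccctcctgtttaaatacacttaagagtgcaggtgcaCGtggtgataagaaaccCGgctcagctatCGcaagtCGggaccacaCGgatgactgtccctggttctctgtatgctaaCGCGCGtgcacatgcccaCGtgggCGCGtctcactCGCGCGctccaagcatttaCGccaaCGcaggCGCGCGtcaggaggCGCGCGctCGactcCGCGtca
These 250 bases (chr2:25319188-25319437, minus strand of GRCm38.p6, CG in capitals) hold 27 CG steps at 58.8% G+C, inside the P17 H3K4me3 peak.

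Of the AMPA genes, Gria2, whose edited subunit limits calcium entry, and Gria4 had H3K4me3 at the start at both ages. Their peaks were 4304 and 4309 bp wide at P2 and 6484 and 6481 bp at P17, and most of the added width lay on the gene side of the start. Gria1 had a 3298 bp peak in the P17 list alone, and X-linked Gria3 had none. Among kainate genes, Grik1, a subunit used by some OFF bipolar cells, had a 5078 bp peak in the P17 list alone. Grik2 had a 3824 bp peak in the P2 list alone, 3920 bp from its start, with P17 H3K27ac peaks there and at the start. Grik5 had one at the start at both ages, 3283 bp wide at P2 and 5651 bp at P17. The kainate genes thus fell into every age class except none at either age.

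Metabotropic Grm7 and Grm8, which encode presynaptic receptors, had H3K4me3 at the start at both ages. The Grm7 peak was the widest of the P2 list at receptor genes, 6799 bp at P2 against 4590 bp at P17, and the Grm8 peak measured 4268 and 5150 bp. Grm2, Grm3, Grm4 and Grm5 had none. The 5 widest H3K4me3 peaks in receptor windows at P2 were those of Grm7, Grik3, Gria4, Gria2 and Grm8, and at P17 those at Grin2d, Grin2b, Gria2 and Gria4 were among the 5 widest.

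Of the 19 GABA-A genes, Gabra2, Gabra5 and Gabrb2 were among those with H3K4me3 in the window at both ages. Gabra2 and Gabrb2 encode an alpha and a beta subunit, and their peaks lay at the start. They measured 3036 bp at P2 and 2909 bp at P17 for Gabra2, and 4216 and 4231 bp for Gabrb2. The widths at these starts were thus nearly alike at the ages. In the gene cluster on chromosome 5 (Gabrg1, Gabra2, Gabra4, Gabrb1), H3K4me3 lay at Gabra2 and at none of the other 3 genes at either age. Gabra5 had no H3K4me3 peak within 1 kb of its own start at either age. The peak of its window found in both lists lay 79756 bp from its start at P2 and 79709 bp at P17. That peak also overlapped another gene in the window, so it cannot be assigned to Gabra5. A further P17 peak of 3147 bp lay inside a P17 H3K27ac peak of 8461 bp, 87660 bp from the Gabra5 start.

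No H3K4me3 peak in either list was found at 13 GABA-A genes, Gabra3, Gabra4, Gabra6, Gabrb1, Gabrg1, Gabrg3, Gabrd, Gabre, Gabrp, Gabrq, Gabrr1, Gabrr2 and Gabrr3. Among the 5 glycine receptor genes, Glra1 had a 6078 bp peak in the P17 list alone. Its alpha subunit is the one of adult glycine receptors in spinal cord and brainstem. Glra2, known as the fetal alpha subunit, Glra3, Glra4 and Glrb, the shared beta subunit, had none at either age. Of these 4, Glra2 and Glra4 lie on the X chromosome.

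**Figure D4:**
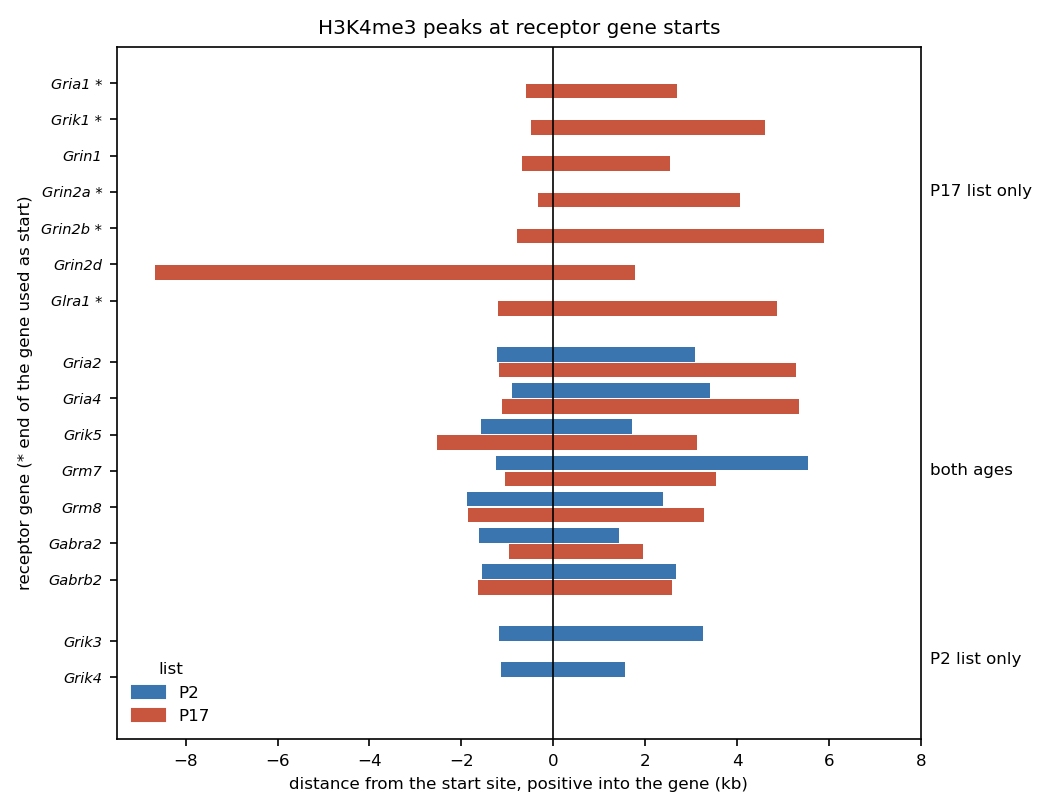
Extent of H3K4me3 peaks within 1 kb of receptor gene starts in the P2 (blue) and P17 (red) lists, by distance in kb from the start, positive into the gene; an asterisk marks genes where an end of the gene stands in for the start. Shown are 7 genes in the P17 list only, 7 in both and 2 in the P2 list only, and the Grin2d peak reaches 8665 bp upstream.

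H3K27ac at P2 lay at nearly all receptor genes, over shares of the window that ranged from 0% to 95.2%, the highest at Grik5. The P2 list had 1047 peaks in their windows, up to 195 at Grm7, with a median width of 1060 bp, and the P17 list had 59, with a median of 2928 bp. A median of 6.54% of a receptor window lay under P2 peaks, against 20.9% for all genes, and 12 receptor genes were above that median of all genes. At P17 the medians were 0.81% and 4.85%. For genes of 100 kb or longer the medians were 6.54% for receptor genes and 28.1% for all at P2, and 0.548% and 3.95% at P17. By median cover, the receptor genes were below other genes at both ages. Gabra6, an alpha subunit best known from cerebellar granule cells, and Gabrq had no H3K27ac peak at either age (background 17.9%). It lay at 27 receptor genes at both ages (57.4%, background 56.7%), at 18 at P2 alone (38.3%, background 25.1%) and at 0 at P17 alone (background 0.315%). The P2 list is 287845 peaks long and the P17 list 29909. When the P2 list was reduced to its 29909 widest peaks, it had a peak at 15 receptor genes (background 40.5%) against 27 at P17 (57.0%), and the order of the ages turned.

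Within 1 kb of the start, H3K27ac lay at 28 receptor genes at P2 (background 67.2%) and 18 at P17 (background 47.3%). It lay there at 13 genes at both ages (background 45.8%), at 15 at P2 alone (21.5%) and at neither age at 14 (31.2%). At 5 it lay there at P17 and not at P2 (10.6%, background 1.54%), among them Grin2a, Gabrr1, Gabrr2 and Glra1. Of these 4, Grin2a and Glra1 also had H3K4me3 in the P17 list alone. The genes Gabrr1, Gabrr2 and Gabrr3 encode the GABA-C type receptors of bipolar cell terminals. They had larger covered shares at P17 than at P2. The share was 4.13% at P2 and 19.4% at P17 for Gabrr1, 28.9% and 46.4% for Gabrr2, and 4.18% and 10.6% for Gabrr3. Gabrr2 had 11 P2 peaks of up to 3133 bp and then, at P17, a peak of 20196 bp over its start (chr4:33059475-33079670), the widest P17 H3K27ac peak at any receptor gene. Gabrr1, its neighbour, had a P17 peak of 2782 bp at the start and one of 5189 bp inside, and the P17 peaks of Gabrr3 lay 51674 and 54696 bp from its start. All 3 Gabrr genes had H3K27ac at both ages and no H3K4me3 or SOX peak in any list.

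The other receptor genes with wide P17 H3K27ac were Grik5, with 13764 bp inside the gene, and Grm8, with 13621 bp 312554 bp from its start. The 16905 bp peak in the Grin3b window lay over Tmem259, Cnn2 and Abca7. Glra1 had 7 P17 H3K27ac peaks over 16.6% of its window, against 20.2% at P2, and 3.55% of all genes had 7 or more. Cover was lower at P17 at Grik4 (49.9% at P2, 0% at P17), Glrb (26.2% and 0%), Grin2c (30.6% and 0%), Grik3 (45.4% and 6.94%) and Grm4 (48.7% and 6.49%). Covered shares thus differed in both directions between the ages. The Gabrr genes were among the receptor genes with the larger share at P17, and not the only ones. Grik3, Grik4 and Grm4 were among those with the larger share at P2.

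**Figure D5:**
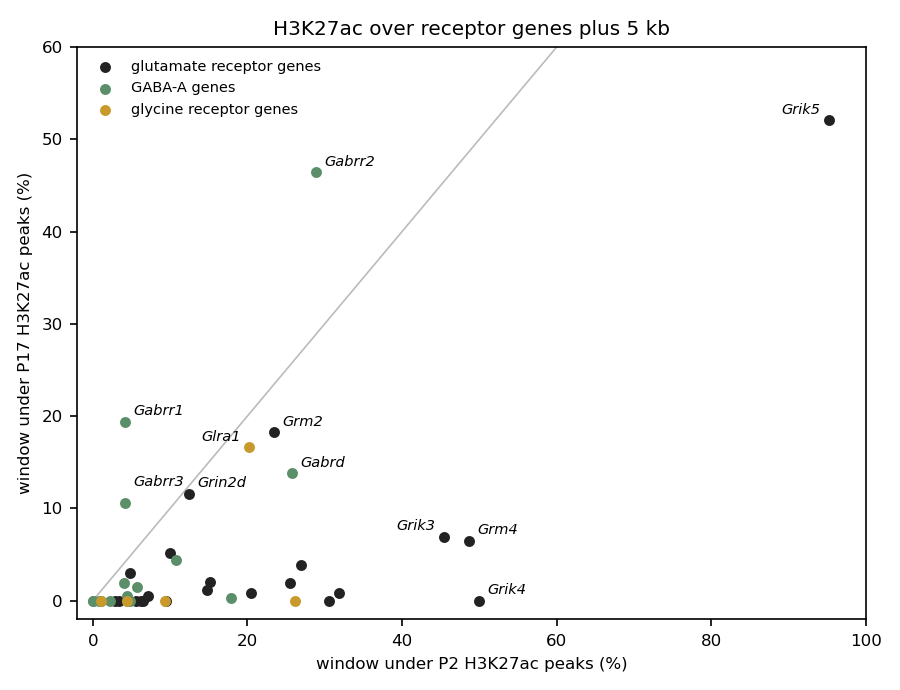
Percent of each receptor window (gene plus 5 kb) under H3K27ac peaks at P2 (horizontal) and P17 (vertical), 1 point for each of 43 genes, with the line of equal shares; genes above 10% at P17 or 40% at P2 are named. Gabrr1, Gabrr2 and Gabrr3 lie above the line, at 19.4%, 46.4% and 10.6% for P17.

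The 2 marks did not always occur in the same window. A mark was counted here anywhere in the window, so peaks of the 2 marks need not overlap. The H3K4me3 peaks at the start of Grm8 at both ages, and at an end of Grin2b at P17, overlapped no H3K27ac peak of either age. Both genes still count as having both marks. At P2 all 13 receptor genes with H3K4me3 also had H3K27ac, as did 10766 of the 10788 protein-coding genes with that mark. At P17, 18 had both marks (38.3%, against 48.0% of all genes). H3K4me3 without H3K27ac was found at 3 (6.38%, against 2.93%), among them Grik1 and Grin1, and H3K27ac without H3K4me3 at 9 (19.1%, against 9.07%). Those 9 were Grik2, Grm2, Grm4, Gabrb1, Gabrg3, Gabrd, Gabrr1, Gabrr2 and Gabrr3. The 6 X-linked members, Gria3, Gabra3, Gabre, Gabrq, Glra2 and Glra4, had no SOX or H3K4me3 peak and no P17 H3K27ac peak, and all but Gabrq had P2 H3K27ac. Of all 966 X-linked protein-coding genes, SOX8 lay at 1.24% at P2 and 0.518% at P17 and SOX9 at 4.97% and 1.04%. H3K4me3 lay at 28.6% and 31.5% of them, and H3K27ac at 59.4% and 32.4%. These shares were below those of all genes in each of the 8 lists.

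A larger share of other genes of the same transmitter systems had SOX peaks. Of 62 genes for auxiliary subunits, scaffolds, transporters, enzymes and GABA-B and delta receptors, P2 SOX8 lay at 13 (21.0%), P2 SOX9 at 25 (40.3%), P17 SOX8 at 15 (24.2%) and P17 SOX9 at 16 (25.8%), each above the share of all genes. H3K4me3 lay at 45 at P2 (72.6%, background 49.3%) and 43 at P17 (69.4%, background 50.9%). It lay at 37 at both ages (background 45.9%), 8 at P2 alone (background 3.4%) and 6 at P17 alone (background 5.0%). P17 thus did not hold more of these genes than P2. Scaffold genes, whose proteins anchor receptors at the synapse, had SOX8 peaks at 8 of 19 at P2 and 7 at P17, and SOX9 peaks at 10 at each age. Transporter genes had P17 SOX8 peaks at 6 of 18 and P2 SOX8 peaks at 1, while SOX9 lay at 5 at P2 and 4 at P17. Enzyme genes had SOX peaks at P2 alone, with SOX9 at 4 of 5. Gphn (gephyrin, the anchor of glycine and GABA-A receptors), Nlgn2, its synaptic partner, Shank1 and the AMPA auxiliary subunit gene Cnih2 were among those with a peak in all 4 SOX lists. Dlg4 (PSD-95), Homer1 and Slc6a9, a glycine transporter gene, had one in 3. Shank3 and Slc12a5 (the chloride extruder KCC2) were among those with both P17 factors and no P2 SOX peak. The anchor of the inhibitory receptors thus had peaks of both factors at both ages, while their subunit genes had none.

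Short SOX motifs were looked for in the receptor promoters that could be read. The letters AACAAT and AACAAAG, core forms of the SOX recognition sequence that share their first 5 letters and cannot both match at one position, were searched on both strands of the 250 bases. AACAAT was in 3 of 40 receptor promoters (7.5%, against 8.22% of all 21263) and AACAAAG in 0 of 40 (against 4.43%). None of the 5 printed promoters held either, which says only that these letters are not in that window. Classed promoter by promoter, the 11 receptor promoters with H3K4me3 at both ages, from 7 genes, had a median of 8 CG steps. The 25 with it at neither age, from 23 genes, had 7, against 19 and 3 over all promoters. Gabrb2, Grm7 and Grm8 have more than 1 entry each, those of Grm7 overlap, and each entry was counted. Grik3 and Grik4, with H3K4me3 over the promoter at P2 alone, had 42 and 36, of a highest value of 56 over all promoters. Of the 14 receptor genes with no promoter entry, Gria1, Gria3, Grik1, Grin2a, Grin2b, Grin3a, Grm4, Grm5, Gabrd and Glra1 are described here.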

How the data were processed

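The study measured SOX8, SOX9, H3K4me3, H3K27ac and IgG by CUT&RUN in wild-type mouse retina at P2 and P17. The authors deposited 8 peak lists, with chromosome, start and end of each peak and a score of 0 in every peak. The submitters' processing notes name Bowtie2, SEACR and GRCm38, with no version or setting. Threshold, use of the IgG libraries and pooling of replicates and of the 2 SOX8 antibodies are not given in the sources used here, and no IgG list was analysed here. Depth is unknown.

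Genes came from a RefSeq table of GRCm38.p6 (21887 protein-coding genes on the main chromosomes). Start sites came from RefSeq promoter entries, which matched 33 of the 47 receptor genes, and for the other 14 either end of the gene stood in. The table gives no exons, so whether a peak lies in an exon or intron was not analysed here. A peak counted at a gene when it overlapped the gene plus 5 kb by 1 bp or more, and at a start when it overlapped the 1 kb on either side. Positions are counted from 1. A gene group was called a cluster where gaps between receptor genes were at most 1000 kb. One list per target and age holds no replicate values, so no test was run and counts stand beside the same share over all protein-coding genes. The overlap counts were checked on simulated peaks. Alternatives were other flanks, start distances, peak centres, trimmed peaks, the wider 50% of each list, lists of equal length, a 50% overlap and receptor genes alone in their window.

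Receptor genes and gene lists were chosen with earlier results of these data known. Named with positions or widths were receptor genes with a SOX peak, those whose H3K4me3 differed between the lists and the 5 widest H3K4me3 and P17 H3K27ac peaks. The H3K4me3 widths of Gabra2, Gabra5 and Gabrb2 are given outside this rule and were chosen after their values were seen. Other transmission genes named, at most 10, had peaks in at least 3 SOX lists or P17 SOX peaks alone. Results for some genes that meet these rules are not reported here, and they are left out of the figures that show single genes. Genes singled out for H3K27ac cover or widths were chosen after their values were seen. Python 3.11.15, numpy 2.4.6, pandas 2.3.3 and matplotlib 3.10.9 were used.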

Additional observations from a re-analysis of the deposited data

How the results depend on the processing

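No paired analysis was possible because the lists name no replicate. Of 128 recomputed counts, 111 were within 1.5 times the reported ones. With the wider 50% of each list, the counts of receptor genes were 1 for P2 SOX8, 8 for P2 H3K4me3, 16 for P17 H3K27ac, 1 each for SOX8 and H3K4me3 in the P2 list alone and 3 for H3K27ac in the P17 list alone. With lists of equal length, they were 1 for P2 SOX8, 15 for P2 H3K27ac, 1 for SOX8 and 4 for H3K27ac in the P2 list alone, and 16 for H3K27ac in the P17 list alone, against 0 as deposited. For the 34 receptor genes alone in their window, they were 3 for P2 SOX9, 1 for P17 SOX8 and 3 for P17 SOX9. Within 1 kb of the start, they were 1 for SOX8 in the P2 list alone, 2 for SOX8 in the P17 list alone and 5 for H3K27ac in the P17 list alone. These alternatives use fewer peaks, fewer genes or smaller windows by construction. Other flanks, start distances, peak centres, trimmed peaks and a 50% overlap moved no count beyond 1.5 times. Depth and call thresholds of the lists are unknown, so peaks missing from a list may lie below its threshold.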
